A study of Mus musculus with 12 samples.

Results

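The genes described here are targets of the tumour suppressor p53 and genes that hold back cell growth. Of 9 genes listed (Trp53, Mdm2, Cdkn1a, Gadd45a, Gadd45b, Bax, Bbc3, Sesn2 and Perp), 7 had a probe set named for them alone in the platform annotation, with 13 probe sets in all. Trp53 and Bax were not analysed here. The 7 genes stand among 14197 genes tested, and 12 of the 13 probe sets, of 45101 in the whole table, passed a filter on low signal. The members were chosen by their signal in the 4 groups, so their levels and differences below are a description and carry no test. By their labels all samples were mouse germ cells or cells made in vitro to resemble them, collected by FACS with no gate named. Each group had 3 arrays called biological replicates. Spermatid-like cells (SLC) were differentiated in vitro, for a time and from a starting line that the labels do not give. Round spermatids (RS), haploid cells that follow meiosis, came from testis of BDF1 mice at 3 weeks of age. Primordial germ cell-like cells (PGCLC) were taken at day 6 of differentiation in vitro, again with no line named. The sex of the cells made in vitro is not given. Primordial germ cells (PGC), the fetal precursors of sperm, came from genital ridges of BDF1 male fetuses at E12.5. No group carried a mutation or drug treatment in the labels. Signals are linear intensity units on Affymetrix arrays, where 92.0 was the median of the whole table and values under 30.7 were set to that floor before taking log2.

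The p53 protein is a transcription factor held at a low level by Mdm2, a ubiquitin ligase that marks it for destruction and whose own gene p53 activates. When DNA damage or other stress stabilizes p53, it switches on genes that stop the cell cycle, repair DNA or start cell death. Cdkn1a encodes an inhibitor of cyclin-dependent kinases and is the classical arrest target. Gadd45a and Gadd45b encode small stress proteins linked to arrest and to stress-activated kinases, Sesn2 encodes a sestrin that restrains growth signalling, Bbc3 encodes the BH3-only death protein PUMA, and Perp encodes a membrane protein of desmosomes that was found as a p53 target in cell death. Several of these genes also respond to other signals, of stress and growth, without p53. In germ cells, damage-induced removal of cells through this pathway is well known.

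Promoter sequence was set beside the members because Cdkn1a, Gadd45a and Gadd45b each had higher signals in the in vitro groups than in the in vivo ones. Sequences were taken from RefSeq (GRCm38.p6), which held 9 promoter windows for 6 of the 7 genes and none for Perp. Each printed run is the 250 bases before an annotated start, 5′ to 3′ on the gene's strand. Capitals mark matches to the consensus decamer of p53, searched on both strands with no mismatch; the decamer reads alike on both. The windows lie at chr17:29090729-29090978 on the plus strand for Cdkn1a, chr6:67037408-67037657 on the minus strand for Gadd45a, chr10:80929841-80930090 on the plus strand for Gadd45b and chr10:117710759-117711008 on the minus strand for Mdm2.
Cdkn1a: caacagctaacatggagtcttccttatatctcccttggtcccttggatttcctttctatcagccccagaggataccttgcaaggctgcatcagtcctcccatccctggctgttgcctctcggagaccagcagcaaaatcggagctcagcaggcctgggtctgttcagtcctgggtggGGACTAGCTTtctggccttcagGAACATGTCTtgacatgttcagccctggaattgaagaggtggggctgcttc
Gadd45a: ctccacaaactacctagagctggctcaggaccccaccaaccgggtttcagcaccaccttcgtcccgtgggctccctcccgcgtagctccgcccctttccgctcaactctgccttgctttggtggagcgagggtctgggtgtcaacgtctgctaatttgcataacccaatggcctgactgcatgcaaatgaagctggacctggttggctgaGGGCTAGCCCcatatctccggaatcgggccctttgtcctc
Gadd45b: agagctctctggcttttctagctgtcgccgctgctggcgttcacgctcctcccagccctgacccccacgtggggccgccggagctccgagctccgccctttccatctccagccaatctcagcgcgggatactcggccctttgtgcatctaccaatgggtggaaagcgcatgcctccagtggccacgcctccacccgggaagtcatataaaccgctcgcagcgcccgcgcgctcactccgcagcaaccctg
Mdm2: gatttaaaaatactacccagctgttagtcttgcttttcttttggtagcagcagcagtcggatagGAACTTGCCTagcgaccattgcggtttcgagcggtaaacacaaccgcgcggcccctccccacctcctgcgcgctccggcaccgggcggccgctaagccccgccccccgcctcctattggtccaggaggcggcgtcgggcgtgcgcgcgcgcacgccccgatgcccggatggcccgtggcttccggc
Cdkn1a held 2 matches, at 73 to 64 and at 51 to 42 bases before this start, and Gadd45a held 1, at 40 to 31 bases before its start. Mdm2 held 1 match, at 186 to 177 bases before its start, and is shown because its signals did not share that pattern. Gadd45b, whose signals did, held no match in this window. The second Cdkn1a window and the windows of Bbc3 and Sesn2 held none. Within each pair Bbc3 and Sesn2 too had higher group means in vitro than in vivo. Among all 32851 promoter windows of the table, 7.13% held a match, against 3 of the 9 windows here. A match is a string of letters and says nothing about binding.

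Array medians lay between 73.2 and 107 units. Probe sets for the 3′ and 5′ ends of Gapdh, a check of RNA length, differed by -0.555 to -0.433 (log2, 3′ minus 5′) on SLC arrays, -0.008 to 0.2 on RS, -0.371 to -0.289 on PGCLC and -0.434 to -0.364 on PGC arrays. The same check on beta-actin gave 0.327 to 0.6 on SLC, 0.46 to 0.488 on RS, 0.37 to 0.629 on PGCLC and 0.473 to 0.696 on PGC arrays. The part of RNA quality in the results was not tested. The spermatid genes Acrv1, Prm1 and Tnp1 lay at 7178 units or more on each SLC and RS array, and at or under 68.8 units on each PGCLC and PGC array. Pou5f1, a pluripotency factor, was at 70.3 to 220.1 units on SLC and RS arrays and at 6064 to 7088 on PGCLC and PGC arrays. PGCLC arrays were unlike each other, with Pearson's r across genes of 0.914 to 0.976, against 0.977 to 0.988 within the other groups, and the germ cell gene Ddx4 was at 486, 6507 and 3237 units on PGCLC replicates 1, 2 and 3. The germ cell gene Dazl was at 2284, 17220.0 and 10506 units on the same PGCLC arrays against 19103, 18902 and 22018 in PGCs, and Dppa3, a marker of PGCs, at 3567, 19189 and 11456 against 21588, 20850.1 and 22005. On all 3 PGCLC arrays Ddx4, Dazl and Dppa3 lay below every PGC array, replicate 1 by the most and replicate 2 by the least. Ddx4 read 7054, 7709 and 7219 units in PGCs. Pearson's r between PGCLC and PGC arrays was 0.884 to 0.974, against 0.914 to 0.976 among PGCLC arrays. Values on the PGCLC arrays are therefore given one by one.

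Cdkn1a, the cyclin-dependent kinase inhibitor, was highest in SLCs and lowest in RS. Its brighter probe set (1424638_at) read 4529.9, 4588 and 4903 units on the SLC arrays, against 88.8, 81.6 and 71.7 on the RS arrays. It read 2004, 611 and 1498 in PGCLCs and 434, 426 and 448 in PGCs. The order of the means was SLC, PGCLC, PGC, RS, and no group overlapped its neighbour in that order. The difference SLC minus RS was 5.86 (SE 0.32) on the log2 scale, or 58.1-fold. PGCLC minus PGC was 1.49 (SE 0.32), SLC minus PGCLC 1.93 (SE 0.32) and RS minus PGC -2.44 (SE 0.32). The second probe set (1421679_a_at) was dimmer and gave the same order, with 907, 1798 and 1733 units in SLCs, 190.2, 110.1 and 182 in RS, 646, 245 and 472 in PGCLCs and 366, 219.6 and 225 in PGCs. Its SLC minus RS difference was 3.18 (SE 0.38), smaller than that of the brighter probe set, and its PGCLC and PGC arrays overlapped. Averaging both probe sets gave an SLC minus RS difference of 4.52.

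Gadd45a, a stress protein gene, was high in both in vitro groups. It read 988, 1071 and 1165 units in SLCs, against 57.7, 12.6 and 72.8 in RS, where 1 array lay under the floor. The PGCLC arrays read 1771, 273 and 1091 and the PGC arrays 190.1, 145 and 144. SLC and PGCLC arrays overlapped, while PGC and RS arrays each lay apart below them. SLC minus RS was 4.41 (SE 0.55), 21.2-fold on the floored scale, and PGCLC minus PGC was 2.35 (SE 0.55). RS minus PGC was -1.65 (SE 0.55), and SLC minus PGCLC, at 0.41 (SE 0.55), turned to -0.37 without PGCLC replicate 2.

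Gadd45b, a relative of Gadd45a, had much the same order on its brightest probe set (1450971_at). It read 937, 870.1 and 1106 units in SLCs and 39.3, 173 and 46.2 in RS, with PGCLCs at 1946, 371 and 1417 and PGCs at 179.7, 173 and 225. In both pairs the in vitro arrays lay above all in vivo arrays, and SLC arrays overlapped PGCLC arrays. SLC minus RS was 3.83 (SE 0.61) and PGCLC minus PGC 2.40 (SE 0.61). The probe set 1449773_s_at read 745, 856 and 900.5 in SLCs, 124, 183 and 165 in RS, 1046, 376 and 803 in PGCLCs and 212, 123 and 100.3 in PGCs. It gave log2 differences of 2.42 (SE 0.36) and 2.31 (SE 0.36) for the same comparisons. For RS minus PGC these probe sets gave opposite signs, -1.49 (SE 0.61) and 0.17 (SE 0.36), each with overlapping arrays. The third probe set (1420197_at) was dim, at 14.0 to 147 units over all arrays, with its highest group mean in PGCLCs (134 ± 11.7, SD, n = 3) and overlapping SLC and RS arrays.

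Of the death-linked members, Bbc3 was brightest in PGCLCs. The single probe set read 217, 172 and 182 units in SLCs and 118, 186 and 135 in RS, which overlapped, against 415, 215 and 373 in PGCLCs and 95.5, 112 and 86.6 in PGCs, which did not. PGCLC minus PGC was 1.72 (SE 0.27), 3.30-fold, and SLC minus RS was 0.40 (SE 0.27), which turned to -0.09 after quantile normalization. Perp, the desmosomal member, was high in PGCLCs alone. It read 2123, 278 and 1609 units in PGCLCs against 109, 133 and 81.0 in PGCs, and 61.4, 20.0 and 32.7 in SLCs against 34.4, 50.0 and 37.0 in RS. SLC and RS arrays overlapped, all under the table median, and 1 SLC array lay under the floor. PGCLC minus PGC was 3.22 (SE 0.62), 9.31-fold, and SLC minus PGCLC was -4.64 (SE 0.62).

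Sesn2, the sestrin, varied over a narrow range. Its brighter probe set (1451599_at) read 434, 436 and 358 units in SLCs, 283, 185 and 203 in RS, 730.2, 614 and 857 in PGCLCs and 484, 545 and 408 in PGCs. In each pair the in vitro arrays lay above the in vivo arrays without overlap. The differences were small, 0.89 (SE 0.19) for SLC minus RS and 0.61 (SE 0.19) for PGCLC minus PGC. SLC arrays lay below PGCLC arrays, at -0.83 (SE 0.19) for SLC minus PGCLC, and RS arrays below PGC arrays, at -1.11 (SE 0.19) for RS minus PGC. The dimmer probe set (1425139_at) read 163, 199 and 189 in SLCs, 134, 111 and 142 in RS, 341, 271 and 378 in PGCLCs and 343, 341 and 206 in PGCs, so that PGCLC and PGC arrays overlapped.

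Mdm2, the ubiquitin ligase of p53, was bright on every array and its probe sets disagreed. The probe set 1427718_a_at read 2972, 3248 and 2888 units in SLCs, 4573, 4827 and 4665 in RS, 1888, 1286 and 1625 in PGCLCs and 1843, 1774 and 1691 in PGCs. On it RS lay above SLCs, both lay above the fetal-stage groups, and PGCLC and PGC arrays overlapped. SLC minus RS was -0.63 (SE 0.12) and RS minus PGC 1.41 (SE 0.12). The probe set 1423605_a_at read 2545, 2096 and 1963 in SLCs, 2336, 2006 and 2079.8 in RS, 2066, 2123 and 2199.8 in PGCLCs and 2619.8, 2265 and 2249.8 in PGCs, and its lowest and highest group means were 2129.8 ± 66.9 in PGCLCs and 2378 ± 209 in PGCs (SD, n = 3 each). Its SLC minus RS difference was 0.03 (SE 0.11) and its RS minus PGC difference -0.15 (SE 0.11). The third probe set (1457929_at) stayed under the table median on all 12 arrays, at 16.6 to 60.8 units, and failed the filter. Which transcripts each probe set reads is not given in the sources used here.

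**Figure D1:**
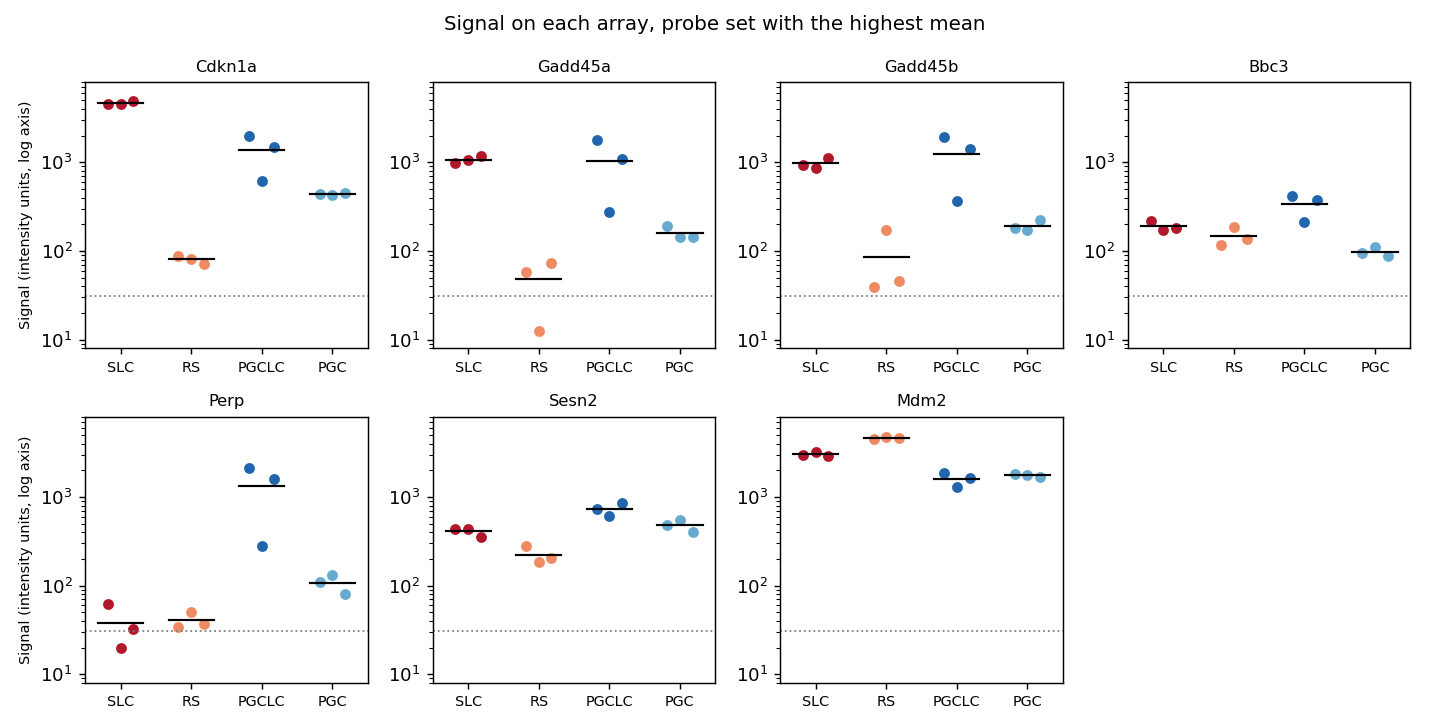
Signal in intensity units (log axis) of the 7 measured members on each of the 12 arrays, with 3 points and a black line at the mean per group; the dotted line is the floor of 30.7 units. Cdkn1a, Gadd45a and Gadd45b are high in SLCs and low in RS, Perp stands out in PGCLCs, and Mdm2 is bright throughout.

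**Figure D2:**
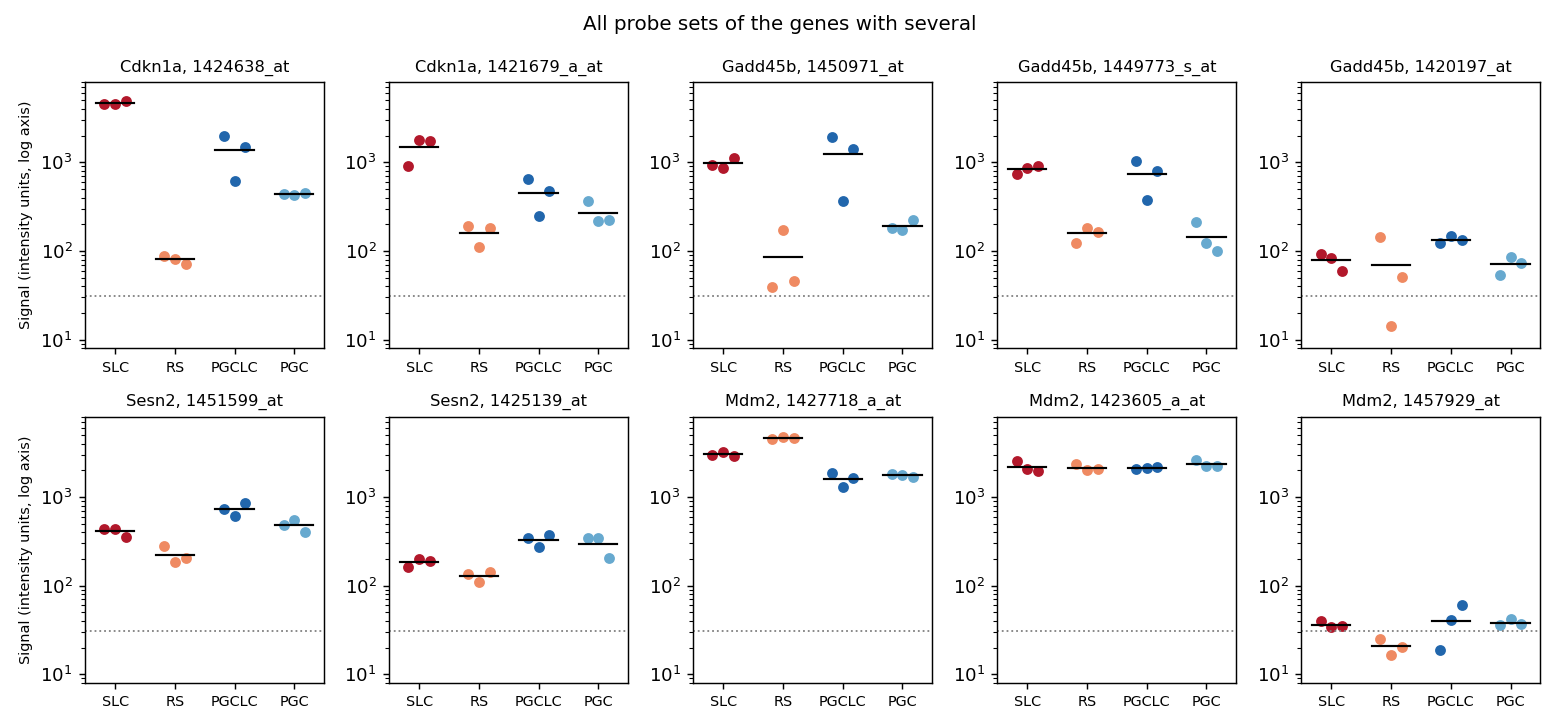
All 10 probe sets of the 4 members that have several, drawn as signal (log axis) per array with group means. The Cdkn1a probe sets share their order, while the Mdm2 probe set 1427718_a_at is highest in RS and 1423605_a_at is nearly level.

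Counted by the rule used for all genes (limma adjusted p under 0.05 and at least 2-fold), 3 of the 7 members were higher in SLCs than in RS and 0 lower. These were Cdkn1a, Gadd45a and Gadd45b, and 24.0% of all genes tested were called higher and 3.44% lower. For PGCLC minus PGC, Cdkn1a, Gadd45a, Gadd45b, Bbc3 and Perp were called higher and 0 lower, beside 10.4% and 1.62% of all genes. For SLC minus PGCLC, Cdkn1a was called higher and Perp lower, where 29.9% and 27.4% of all genes were. For RS minus PGC, Mdm2 was called higher on its brighter probe set and Cdkn1a, Gadd45a, Gadd45b and Sesn2 lower, where 31.8% and 37.7% of all genes were. Counted by arrays that did not overlap, 4 members were higher and 1 (Mdm2) lower for SLC minus RS, where 34.4% and 40.4% of all genes were. For PGCLC minus PGC 6 were higher and 0 lower, where 20.2% of all genes were higher and 20.2% lower. For SLC minus PGCLC 2 were higher and 2 lower, where 38.1% and 38.4% of all genes were, and for RS minus PGC 2 were higher and 4 lower, where 38.8% and 46.6% were. Nothing is read from these counts, since the same signals were in view when the members were chosen. The median log2 difference of the 7 members was 0.89 for SLC minus RS and 1.72 for PGCLC minus PGC, beside -0.15 and 0.005 over all genes. SLC minus RS and SLC minus PGCLC share the SLC arrays, and each other group likewise enters 2 of these comparisons.

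**Figure D3:**
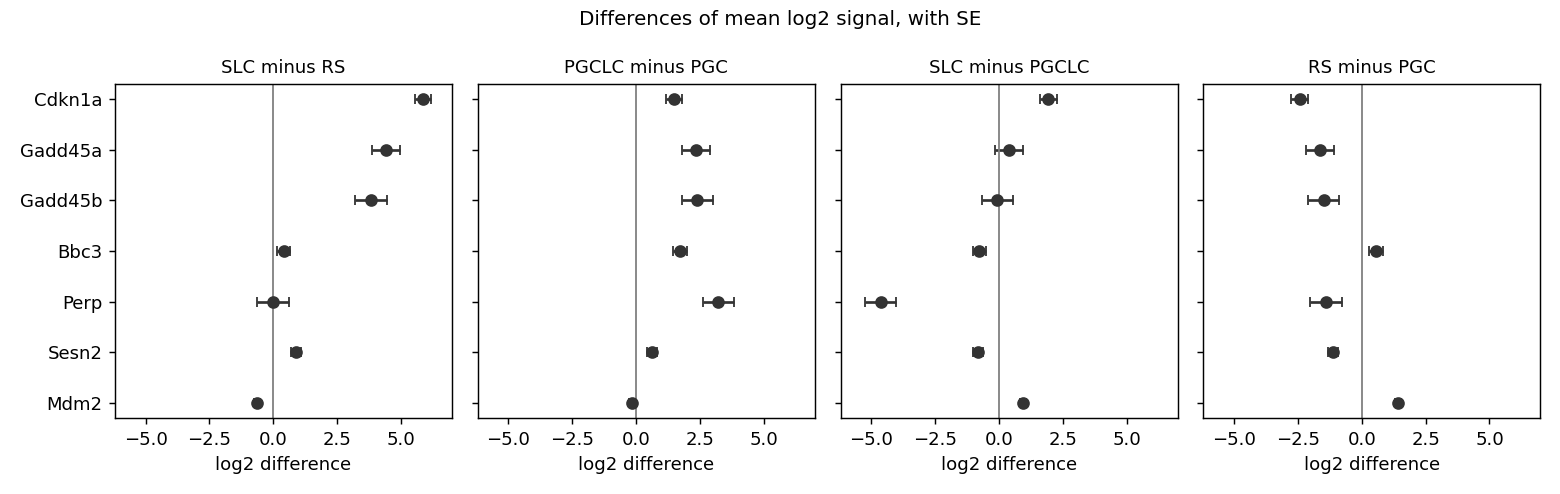
Difference of mean log2 signal (points) with its SE (bars) for the 7 members in the 4 comparisons, each named as the first group minus the second. The SLC minus RS difference of Cdkn1a, 5.86, and the SLC minus PGCLC difference of Perp, -4.64, lie farthest from 0.

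The PGCLC means of the members hide unlike arrays. PGCLC replicate 2 was the lowest of the 3 arrays for all 7 measured members, and 6 of them, all but Sesn2, ran in the order replicate 1, replicate 3, replicate 2. Over all genes tested, replicate 2 was lowest in 39.9% and that order held in 32.1%. Against the mean of the PGC arrays, Cdkn1a differed by 2.20, 0.49 and 1.78 on the log2 scale on PGCLC replicates 1, 2 and 3. Gadd45a differed by 3.48, 0.79 and 2.78 and Perp by 4.33, 1.40 and 3.93. All 3 PGCLC arrays thus lay above the PGC mean for these genes, replicate 2 by the least. Without replicate 2, the PGCLC minus PGC difference was 1.99 for Cdkn1a, 3.13 for Gadd45a and 4.13 for Perp, and without replicate 1 it was 1.13, 1.79 and 2.66 for these genes. Immediate early genes, which answer to acute stress and growth signals, had their lowest PGCLC signal on replicate 2 in 14 of 16 cases, and their median differed by 2.22, 1.41 and 2.10 from the PGC mean. Markers of fetal gonad somatic cells ran the other way, with median differences of -1.42, 1.39 and 0.24 over 19 measured genes. Their summed signal was 7538, 22082 and 12874 units on the same arrays, beside 10069 to 11488 on PGC arrays, and none of the 19 was at the floor on all arrays of either group. The part of these other genes in the members' signals was not tested.

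**Figure D4:**
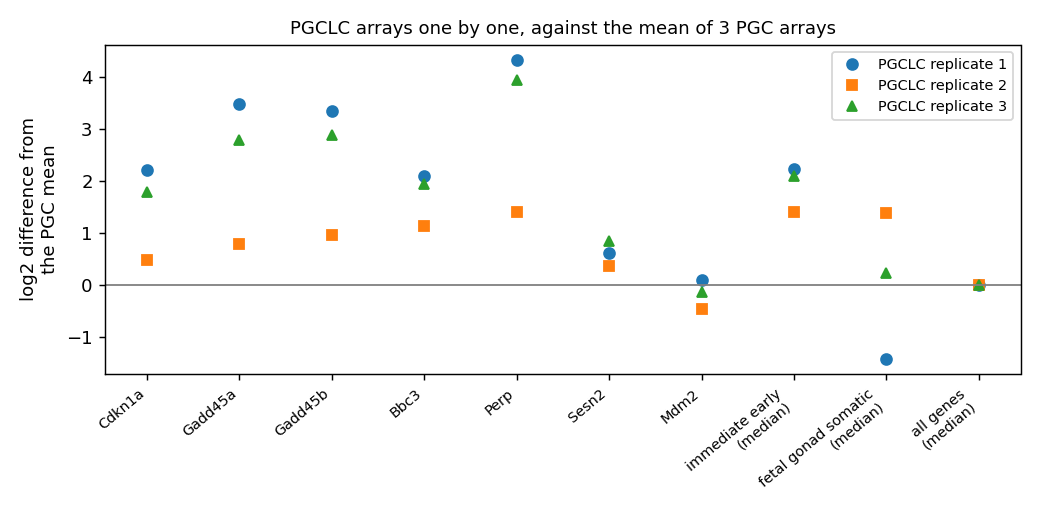
Difference of each PGCLC array from the mean of the 3 PGC arrays, on the log2 scale, for the 7 members and for the medians of the immediate early genes, the fetal gonad somatic markers and all genes tested. Replicate 2 is lowest for each member and highest for the fetal gonad somatic markers.

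Other genes of the pathway, in 6 lists that hold none of the members, were compared between SLCs and RS. Of known p53 targets, 9 of 12 measured genes of arrest and feedback, 9 of 12 of cell death and 3 of 11 of repair and metabolism rose in SLCs, and of the genes that control p53 itself 2 of 15 rose. Over the 6 lists, 36 of 85 measured genes rose and 0 fell, which is 42.4% rising beside 24.0% of all genes. Under median centring, which moved the median of all genes by -0.26, the lists held 33 rises and 6 falls, and under quantile normalization (shift -0.19) 32 and 4. Among the arrest and feedback targets, Ccng1, a cyclin G gene, rose 56.8-fold, to 4866 ± 119 units in SLCs against 86.0 ± 9.31 in RS (SD, n = 3; log2 5.83, limma adjusted p = 8.53e-07). Btg2, an antiproliferative gene, rose 18.3-fold, to 2239 ± 85.7 against 124 ± 22.4, and the polo-like kinase gene Plk2 rose 14.1-fold. These are values of the brightest probe sets. The 3 Ccng1 probe sets gave log2 differences of 2.19 to 5.83, and the 2 Btg2 probe sets 2.19 to 4.19. Plk3, Zmat3, Rprm, Phlda3, Trp53inp1 and Ptprv rose as well, and Sesn1, Ppm1d and Gtse1 did not pass. All RS arrays of Plk3 and 2 of Rprm lay under the floor. The list's median log2 difference was 2.73, beside -0.15 over all genes.

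Among the cell death targets, Shisa5, which encodes a protein of the endoplasmic reticulum, rose 40.6-fold in SLCs, to 5740.4 ± 318 units against 146 ± 45.7 in RS (log2 5.34, limma adjusted p = 4.93e-08). Pmaip1, which encodes the BH3-only protein NOXA, rose at least 15.0-fold, to 596, 567 and 633 in SLCs against 9.31, 67.1 and 11.1 in RS, where 2 arrays lay under the floor. The receptor gene Eda2r rose at least 13.8-fold, with 2 RS arrays under the floor. Fas, Apaf1, Bid, Aen, Ei24 and Dram1 rose too, and Tnfrsf10b, Pidd1 and Siva1 did not pass. Of 11 repair and metabolism targets 3 rose: Ddit4, an inhibitor of growth signalling, by 17.8-fold, to 1664 ± 87.4 against 94.4 ± 15.0, Rrm2b, a ribonucleotide reductase subunit gene, by 3.93-fold, and Xpc, a DNA damage recognition gene, at 154 ± 26.6 against 44.0 ± 36.1 with 1 RS array under the floor.

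Of 15 p53 regulators 2 rose in SLCs. Cdkn2a, which encodes the Mdm2 inhibitor ARF and the kinase inhibitor INK4A, rose 2.26-fold, to 175 ± 42.2 units against 75.8 ± 0.667 in RS. That call was lost under 3 of 22 alternatives. Hipk2, a p53 kinase gene, rose 10.7-fold on its brightest probe set, although only 4 of its 6 probe sets had that sign. Kat5, an acetyltransferase gene, was at 1197 ± 51.4 against 2344 ± 149 and under 2-fold (log2 -0.97). Of 23 other growth arrest genes 8 rose. Gadd45g, the third of the Gadd45 genes, rose 31.8-fold, to 2129.8, 2224 and 2167 units in SLCs against 63.7, 100.3 and 50.1 in RS (log2 4.99, limma adjusted p = 4.74e-06). Gas1, a growth arrest gene of the cell surface, was at 1127 ± 171 against 59.1 ± 48.3 and higher on 2 of its 3 probe sets, and Gas6, a receptor ligand gene, rose 11.2-fold. The kinase inhibitor genes Cdkn1b and Cdkn2b rose with Gas2, Gas5 and Gas7. Of 12 other BCL2 family genes 5 rose, among them Bok, at 349 ± 97.3 against 32.8 ± 14.9 with 1 RS array under the floor. Bcl2l11, which encodes the BH3-only protein BIM, rose 8.21-fold on its brightest probe set and was higher on 3 of 4, and the survival gene Bcl2l2 rose 5.43-fold. Mcl1 and Bmf rose too.

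Markers of other cells moved with these genes. Of 22 measured testis somatic markers 17 rose in SLCs and 0 fell, and their summed signal was 104285 to 106209 units on SLC arrays against 4129 to 5207 on RS arrays. Col1a1, a collagen gene, rose 81.2-fold, and Cyp11a1, a steroid synthesis gene, was at 4115 ± 165 against the floor on all RS arrays (at least 134-fold on 1 of its 2 probe sets, the other having the other sign). None of the 22 was at the floor on all SLC arrays. Col1a2, Col3a1, Acta2 and Vim gave most of the SLC sums, averaging 21946.8, 20402.1, 15544.8 and 11962.8 units in SLCs. Of the 5 uncalled markers, Cyp17a1, Rhox5, Dhh and Amhr2 had lower means in SLCs, and Des a higher one. Their log2 differences were -1.44, -0.76, -0.71, -0.29 and 0.71 in that order. Cyp17a1 lay under the floor on 2 SLC arrays. Of 19 fetal gonad somatic markers, which share members with that list, 14 rose and 0 fell, and they summed to 45214 to 46534 in SLCs against 1973 to 2271 in RS, where Maf and Cyp11a1 were at the floor. Col3a1 and Col1a1 gave most of the SLC sums of the fetal gonad list. Of 16 immediate early genes 14 rose, with Klf6 87.2-fold and Ier3 51.4-fold higher, and their summed signal was 79972 to 82882 in SLCs against 18822 to 19549.9 in RS. Of 9 macrophage and blood markers Lyz2 and Cdh5 rose, and the list summed to 10235 to 10774 against 13789.9 to 15252, with the globin gene Hbb-y at the floor in both groups. Aif1 alone gave most of these sums, at 9158 ± 155 in SLCs against 13606 ± 685 in RS. The part of these cells and of immediate early signals in the p53 and arrest genes was not tested. In bulk samples of this kind, fewer cells of a type and less RNA per cell cannot be told apart.

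**Figure D5:**
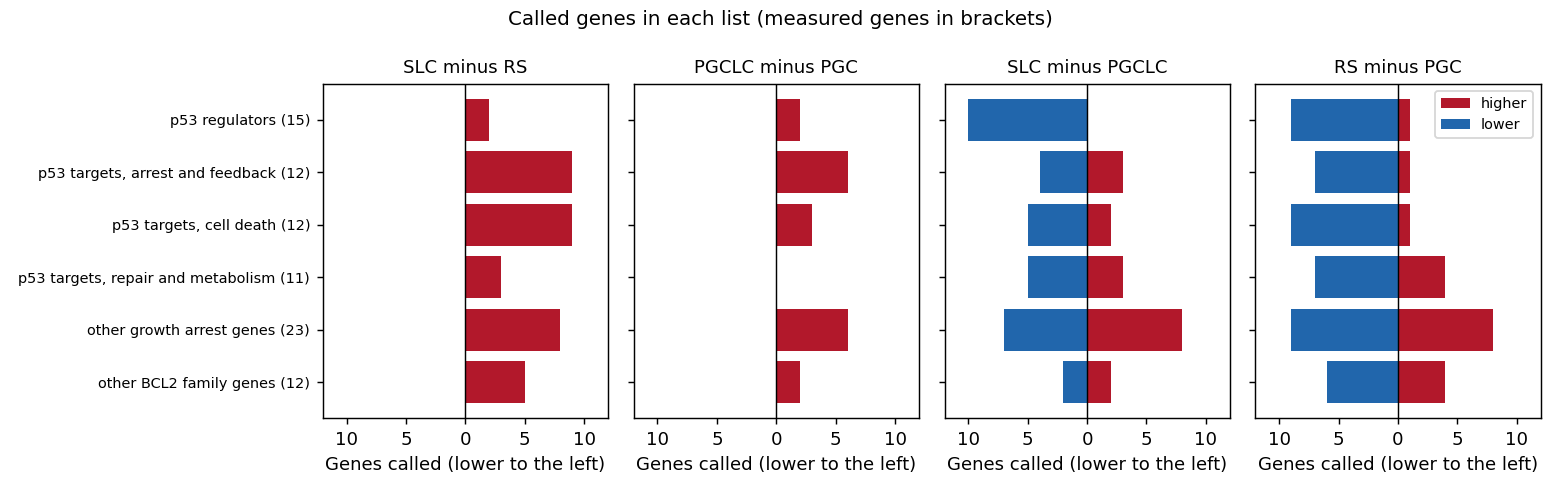
Number of genes called higher (red, right) and lower (blue, left) in each of 6 lists for the 4 comparisons, at a limma adjusted p under 0.05 and at least 2-fold. All calls are rises in SLC minus RS and in PGCLC minus PGC, and most calls among p53 regulators are falls in the later stage.

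Between PGCLCs and PGCs the same 6 lists held 19 rises and 0 falls among 85 genes, 22.4% rising beside 10.4% of all genes. The arrest and feedback targets held 6 of these, while 0 of 11 repair and metabolism targets passed. In the repair list Ercc5, a repair nuclease gene, was at 632 ± 260.2 units in PGCLCs against 306 ± 44.6 in PGCs (limma adjusted p = 0.0218), a log2 difference of 0.96 that stayed under 2-fold. Tigar and Polk differed by -0.70 and 0.63, and Tigar's 3 probe sets did not share a sign. Plk2 rose 6.78-fold, to 2019.6, 540.5 and 1511 units in PGCLCs against 237, 175 and 127 in PGCs (limma adjusted p = 0.00133). Rprm, a G2 arrest gene, rose 6.44-fold and Ccng1 5.40-fold, to 6854, 1198 and 5133 against 681, 589.7 and 666. The 3 Ccng1 probe sets gave log2 differences of 1.14 to 2.43 here. PGCLC replicate 2 was the lowest of its group for 54 of the 85 list genes, Plk2, Rprm and Ccng1 among them, but not for Hipk2 or Atr. Of the cell death targets Eda2r rose 3.83-fold and Shisa5 2.71-fold, and Fas, a death receptor gene, rose (limma adjusted p = 0.0445) over PGC arrays that all lay under the floor. That call was lost under 16 of 22 alternatives.

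The growth arrest genes had 6 rises of 23 in PGCLCs. Gadd45g rose 6.23-fold, to 1020.4, 234 and 613 units against 123, 47.8 and 103 in PGCs. The kinase inhibitor genes Cdkn1c, which is imprinted, and Cdkn1b rose 4.38-fold and 3.20-fold, with Cdkn2b, Gas6 and Ddit3. Of the BCL2 family Bcl2l11 and Bcl2l2 rose, by 2.75-fold and 2.23-fold, while Bak1, a pore-forming relative, missed the threshold at a log2 difference of 1.30 (limma adjusted p = 0.0506). Of the regulators Hipk2 rose 2.60-fold on its brightest probe set, with the same sign on 4 of 6, and the p53 relative Trp63 rose 2.48-fold, while the damage kinase gene Atr was at 3146 ± 1606 against 5082 ± 182. The calls of Trp63, Bcl2l2 and Cdkn1b were lost under 9, 7 and 4 of 22 alternatives. A fit of the 6 arrays compared called 3 of the 85 genes, 2 of them among the 19. The fit of all groups called 16 without PGCLC replicate 1 and 12 without PGCLC replicate 3. By median centring there were 15 rises and 5 falls, with a shift of -0.24 in the median of all genes. Of 16 immediate early genes 15 rose in PGCLCs, Jun most (7.27-fold) and Klf6 next (6.31-fold). Of 22 testis somatic markers 8 rose, led by Tagln, a smooth muscle gene, at 2012, 238 and 1239 units in PGCLCs against 52.8, 47.5 and 117 in PGCs, and Clu at 3025, 1561 and 2630.2 against 396, 418 and 522. The testis somatic markers summed to 28259 to 33419.6 units in PGCLCs against 18211 to 20454 in PGCs, and the immediate early genes to 39738 to 59968 against 15525 to 17696. Rhox5 gave a large part of the testis somatic sums, at 7795 ± 919 units in PGCLCs against 10042 ± 296 in PGCs. Fetal gonad somatic markers had 3 rises of 19 (Col1a1, Dlk1 and Maf), while Tcf21 missed the threshold at a log2 difference of -1.59. There were, among macrophage and blood markers, 3 rises (Csf1r, Cd68 and Adgre1) and 1 fall (Pecam1) of 9, with sums of 4287, 17493 and 10801 units on PGCLC replicates 1, 2 and 3 against 13647 to 14715 on PGC arrays. Hbb-y gave most of these sums, at 7992 ± 6931 in PGCLCs against 11649 ± 408 in PGCs. The macrophage genes Csf1r and Cd68 ran in the order of most members. Csf1r read 796, 279.7 and 601 units on PGCLC replicates 1, 2 and 3 against 90.7, 84.8 and 54.2 in PGCs. Cd68 read 944, 109.7 and 635 against 60.4, 88.7 and 96.2. Lyz2 did not share that order, at 70.0, 53.7 and 46.7 units on the PGCLC replicates. Adgre1 averaged 108 ± 12.2 units in PGCLCs, and Aif1 30.1 ± 25.6 (SD, n = 3 each). The part of all these in the p53 and arrest genes was not tested.

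Between stages, genes that control p53 mostly fell in the spermatid-stage cells, in vitro and in vivo. Of 15 regulators 10 fell in SLCs relative to PGCLCs and 0 rose, and 9 fell in RS relative to PGCs while Kat5 rose. Falls took in 27.4% and 37.7% of all genes in these comparisons. Testis somatic markers rose in 11 and fell in 2 of 22 for SLC minus PGCLC, and rose in 3 and fell in 8 for RS minus PGC, and their part was not tested. The checkpoint kinase gene Chek1 was at 277 ± 30.0 units in SLCs against 2862 ± 512 in PGCLCs, and at 303 ± 71.1 in RS against 3052 ± 241 in PGCs. Chek2 fell 8.36-fold and 9.29-fold in these comparisons, and the deacetylase gene Sirt1 fell 9.51-fold and 10.2-fold. Of the targets, Pmaip1 fell 5.56-fold in SLCs, and in RS it fell at least 142-fold, against 5661 ± 206 units in PGCs. Bid, a BH3-only gene, fell in both, by 3.75-fold and 13.0-fold. Tigar, a regulator of glycolysis, fell 19.7-fold in SLCs, while its signal in RS was 44.5 ± 16.9 against 1434 ± 141 in PGCs. Only 2 of its 3 probe sets fell at least 2-fold. The weakest differed by -0.47 in SLCs and -0.28 in RS on the log2 scale. Trp53inp1 fell 2.88-fold in SLCs and 21.2-fold in RS, to 374, 238 and 275 units against 6497, 6031 and 5918 in PGCs, and Ei24 fell 8.84-fold in RS. The other Trp53inp1 probe set differed by -1.05 in SLCs and -1.16 in RS on the log2 scale. Gas2l3, a relative of the growth arrest gene Gas2, was at 48.3, 67.5 and 53.1 in SLCs against 1067, 797 and 926 in PGCLCs. Of the BCL2 family Bmf fell 3.11-fold in SLCs and Bok 7.72-fold in RS. Gtse1, which restrains p53 in dividing cells, was at 73.8 ± 36.1 in SLCs against 958 ± 123 in PGCLCs, and at 62.6 ± 42.0 in RS against 1057 ± 107 in PGCs.

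Some genes of the lists rose in the spermatid-stage cells. Ppm1d, the p53 phosphatase gene, was at 6979 ± 119.6 units in SLCs against 787 ± 164 in PGCLCs, and at 11602 ± 57.2 in RS against 1022 ± 153 in PGCs, although its second probe set had the other sign in both. The kinase inhibitor gene Cdkn2c rose 10.8-fold in SLCs and 31.5-fold in RS, Bcl2l14 rose 37.1-fold and 88.1-fold, and Bad, a death-promoting BCL2 relative, 4.20-fold and 8.34-fold. Polk, a translesion polymerase gene, rose 5.97-fold and 18.1-fold on its brighter probe set, while its other probe set differed by 0.052 and 0.09 on the log2 scale. Ak1, an adenylate kinase gene, rose 4.03-fold in SLCs, Gas6 8.65-fold in SLCs, and Ddit3 13.2-fold in RS on 1 of its 2 probe sets, the other having the other sign. Dram1, an autophagy gene, was at 3189 ± 52.8 in SLCs, 252 ± 17.2 in RS, 52.1 ± 5.92 in PGCLCs and 38.3 ± 15.3 in PGCs. Ddit4 and Gas1 fell in RS relative to PGCs, Ddit4 by 17.0-fold. Over the 6 lists, 18 genes rose and 33 fell in SLCs relative to PGCLCs, and 19 rose and 47 fell in RS relative to PGCs. Of all genes 29.9% rose in SLCs and 31.8% in RS.

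Whether the signed in vitro minus in vivo difference was unlike at the 2 stages was tested as an interaction, the SLC minus RS difference less the PGCLC minus PGC difference, which does not compare distances. Of the 85 genes 29 had a higher and 9 a lower interaction, beside 21.1% of all genes higher and 11.2% lower. BCL2 family and growth arrest genes with a higher interaction included Bok (2.51), Gas1 (3.37) and Mcl1 (2.03), and Cdkn1c (-2.84) had a lower one. The cell death targets held 8 of 12 higher, with Pmaip1 at 4.67, Shisa5 at 3.91 and Dram1 at 3.27 on the log2 scale. The arrest and feedback targets held 6 of 12, with Ccng1 at 3.40, Plk3 at 3.12 and Trp53inp1, which encodes a nuclear partner of p53, at 2.88. All RS arrays of Plk3 and 2 of Pmaip1 lay under the floor, so their values depend on where the floor was set. For the members the same quantity is a description, and was 4.37 (SE 0.46) for Cdkn1a, 2.06 (SE 0.78) for Gadd45a, -1.32 (SE 0.38) for Bbc3 and -3.23 (SE 0.87) for Perp.

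Genes with the most similar profile were found by the root mean square difference of log2 signals, each gene centred on its own mean over the 12 arrays. For Cdkn1a, whose own signals had a root mean square of 2.17 around their mean, they were Ikbip (0.20), Tpm1 (0.21) and Ctsb (0.21). Tpm1, a tropomyosin gene, read 9077, 9139.6 and 8960.1 units in SLCs, 167, 159 and 154 in RS, 4322, 1878 and 3212 in PGCLCs and 1007, 791 and 788 in PGCs, with PGCLC replicate 2 again lowest. For Gadd45a they were Csrp1 (0.24), Cnn2 (0.38) and Tcim (0.39), the first a LIM domain protein gene, and for Gadd45b Trim8 (0.36), Frrs1 (0.38) and Slc6a8 (0.41). For Perp they were Crabp1 (0.38), Dsc2 (0.43) and Stmn2 (0.45). Crabp1, a retinoic acid binding protein gene, read 11127, 1072 and 7996 units in PGCLCs against 536, 591 and 411 in PGCs, and Dsc2 encodes a desmosomal cadherin. For Bbc3 they were Fat4 (0.25), Baiap2l1 (0.25) and Pmvk (0.31), for Sesn2 Oip5os1 (0.15), Apeh (0.17) and Kdm5c (0.18), and for the brightest Mdm2 probe set Fyttd1 (0.08), Tomm22 (0.08) and Sh3gl1 (0.10).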

How the data were processed

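Per the submitters' processing notes the authors used MAS5, with no version or settings given, and deposited linear intensity values per probe set. The 2% trimmed mean was 500.002 to 500.004 units on all 12 arrays, while the array medians differed. No detection calls or scan dates were given, and the number of arrays limits precision. Probe sets were named from the platform annotation. Values under the 25th percentile of the table, 30.7 units, were set to it before log2. Control probe sets (64) and those with several symbols (932) or none (9160) were left out. Probe sets above the median, 92.0 units, on at least 3 arrays were kept, and the one with the highest mean stood for its gene, which left 14197 genes. All 12 arrays entered 1 limma fit (limma 3.58.1, R 4.3.3) of 4 group means with an intensity trend, so the spread of PGCLC arrays enters every SE. The Benjamini-Hochberg adjustment ran over all of them, and calls needed both adjusted p under 0.05 and a 2-fold or larger difference. "Rose" and "fell" are used of called genes. Folds come from mean log2 differences of the probe set that stood for its gene, and other probe sets of a gene can give smaller ones. "At least" marks folds whose lower group had most arrays under the floor. The members and lists were chosen with earlier results of these data known. In each list and comparison the 3 genes with the largest absolute difference were named, in each marker list the 2 largest for SLC minus RS and for PGCLC minus PGC, and for each member its 3 nearest profiles; other names in a count are its remaining calls. Correlations of the deviations of same-numbered arrays between groups were -0.017 to 0.134. With 3 arrays a group these values cannot settle whether the numbers pair the arrays, and the main fit used no pairing. The alternatives were a pseudocount of 32, no filter, quantile normalization, median centring, the mean of all probe sets, each array left out, the 6 arrays compared, no trend, array weights per group, a replicate block and no minimum fold.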

Additional observations from a re-analysis of the deposited data

Results flagged for a closer look

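For 24 named list genes the SLC minus RS difference was unlike the PGCLC minus PGC difference by the interaction test (limma adjusted p under 0.05 and at least 2-fold). On the log2 scale the interaction was higher for Hipk2 2.04, Cdkn2a 1.26, Ccng1 3.40, Btg2 2.09, Shisa5 3.91, Pmaip1 4.67, Eda2r 1.84, Ddit4 3.61, Rrm2b 1.52, Xpc 1.93, Gadd45g 2.35, Gas1 3.37, Gas6 2.44, Bok 2.51, Bcl2l11 1.58, Bcl2l2 1.28, Plk3 3.12, Trp53inp1 2.88, Dram1 3.27 and Mcl1 2.03. It was lower for Trp63 -1.74, Ercc5 -1.17, Polk -1.60 and Cdkn1c -2.84. Over all genes 21.1% had a higher and 11.2% a lower interaction by that rule. The 24 cannot be set beside these shares, because genes were named for their largest differences, the interaction included. The interaction call of Bcl2l11 was lost under 5 of 21 alternatives, and those of Cdkn2a, Hipk2 and Polk under 1 each. For Plk3, Pmaip1 and Eda2r most RS arrays lay under the floor.

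Pmaip1 and Cdkn1c stood apart in opposite directions at the 2 stages by arrays that did not overlap, which was not tested. For PGCLC minus PGC Pmaip1 was not called (log2 -0.77, limma adjusted p = 0.0566). For SLC minus RS Cdkn1c was not called (log2 -0.71, limma adjusted p = 0.144). Without overlap, 34.4% of all genes were higher and 40.4% lower for SLC minus RS. For PGCLC minus PGC these shares were 20.2% and 20.2%. Every SLC array of Pmaip1 lay above every RS array and every PGCLC array below every PGC array (2569.8, 4483 and 3191 units in PGCLCs against 5801, 5758 and 5424 in PGCs). For Cdkn1c every SLC array lay below every RS array (1042, 1194 and 1195 against 1718, 1694 and 2238) and every PGCLC array above every PGC array.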

How the results depend on the processing

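The SLC minus RS, SLC minus PGCLC and RS minus PGC counts stayed within 1.5 times their value under the alternatives run, except that without a minimum fold SLC minus RS gave 9050 genes in place of 3889 and 59 list genes in place of 36. PGCLC minus PGC moved most. Its 1700 genes became 177 and its 19 list genes 3 in the fit of the 6 arrays compared, and 4274 and 35 without a minimum fold. Leaving out 1 array gave 1008 (without PGCLC replicate 1) to 2847 (without PGCLC replicate 2) genes, with 1011 without PGCLC replicate 3, and 12 (without PGCLC replicate 3) to 27 (without PGCLC replicate 2) list genes. The cause was not tested. By scaling, the share of SLC minus RS calls that were higher was 87.5%, against 54.4% after quantile normalization and 53.4% after median centring; for PGCLC minus PGC it was 86.5%, 73.6% and 52.7%. With the replicate number as a block, the list counts were 36, 18, 51 and 66 for SLC minus RS, PGCLC minus PGC, SLC minus PGCLC and RS minus PGC, in place of 36, 19, 51 and 66. The members' SLC minus RS and PGCLC minus PGC differences kept their sign under 17 of 17 alternatives, except Bbc3 (16 of 17) and Perp (14 of 17) for SLC minus RS. Signals near the floor limit what dim genes such as Perp in SLCs and RS can show.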

Other observations

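Immediate early genes were also counted between stages. In SLCs relative to PGCLCs 6 of 16 rose, among them Fosb, Junb, Ier3 and Myc, and 0 fell. Of all genes 29.9% rose and 27.4% fell there. In RS relative to PGCs 2 rose (Klf4 and Nr4a1) and 10 fell, where 31.8% of all genes rose and 37.7% fell. Klf4, a transcription factor gene, averaged 7879.9 ± 115 units in SLCs, 8169 ± 288 in RS, 3799 ± 1673 in PGCLCs and 661 ± 26.9 in PGCs (SD, n = 3 each), and was named after its values were seen. Its log2 difference was -0.05 for SLC minus RS (limma adjusted p = 0.879) and 2.40 for PGCLC minus PGC (limma adjusted p = 0.000432).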
